A study of Mus musculus with 16 samples.

Results

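Heads of mouse embryos at embryonic day 11.5 (E11.5, 4 arrays) were compared with heads at E9.5 (6 arrays), 10 of the 16 arrays in the series. The members were chosen by their sample titles, which name the stage and the head. The labels give neither the strain nor whether embryos were pooled, and they name no transgene, mutation or treatment in either group. Both stages went through one spin-column kit for RNA of lipid-rich tissue, and total RNA of both was biotin-labelled in a single cycle of in vitro transcription with one kit. The E13.5 arrays were labelled with another kit, so E11.5 and E9.5 are the pair of stages in which the labelling kit does not go with the stage. The submitters describe the arrays of a stage as biological replicates. The question addressed was which transcripts of the early embryonic head changed across these days.

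All levels are log2 intensities of Affymetrix probe sets, short groups of probes for one transcript. One probe set, the brightest over all arrays, stood for each of 18193 genes, and the other probe sets of a gene served as a check. A gene was called when its adjusted p was under 0.05 in the limma fit, and errors of log2 differences are standard errors (SE). The spread behind p and SE was estimated from all 16 arrays, including the 6 E13.5 arrays labelled with another kit. Amounts by which genes rose, fell or differed, and medians of groups, are log2 differences E11.5 minus E9.5. The number of arrays limits the precision. Since whole heads were measured, fewer cells of a type and less RNA per cell cannot be told apart anywhere in these data.

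Between these days the walls of the brain vesicles pass from rapid growth of the neuroepithelium, the dividing epithelium of the neural tube, to the production of the first large groups of neurons. Early progenitors depend on high rates of ribosome production, nucleotide synthesis and glycolysis. Young neurons leave the cell cycle, replace parts of the chromatin and splicing machinery with neuronal versions, and extend axons that are guided by semaphorins, ephrins, netrins and Slits. In the same days the face fills with mesenchyme, and the first macrophages, the later microglia, settle in the head.

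The first principal component of the 10 arrays separated the stages and held 73.3% of the variance. The second held 7.51% and set the E9.5 samples 13 and 15 apart, with scores of 26.1 and 22.5 against -16.3 to -7 in the other E9.5 samples. Correlations across genes were 0.988 to 0.996 within E9.5, 0.989 to 0.993 within E11.5 and 0.943 to 0.966 between the stages. Spike-in transcripts with poly-A tails lay between 7.34 and 7.9 at E9.5 and between 5.21 and 5.5 at E11.5 (mean log2 of 27 probe sets, difference -2.16, two-sided exact permutation p = 0.00476, adjusted over 3 kinds of control 0.00714). Probe sets for 18S ribosomal RNA differed by 2.94 (exact permutation p = 0.00476, adjusted 0.00714) and hybridisation controls by 0.98 (exact permutation p = 0.019, adjusted 0.019), both higher at E11.5. The smallest p that 4 against 6 arrays allow is 0.00476. Handling or RNA input that changed along with the stage cannot be told apart from it, although the kit was the same. The normalized medians of all arrays were equal, so every difference below is relative to the other transcripts.

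Markers of the labelled tissue were present. Of 6 neuron markers 6 rose, with a median log2 difference of 1.9 and summed intensities (log2) of 9.16 to 10.1 at E9.5 and 11.57 to 11.81 at E11.5. Of 6 neuroepithelial markers 3 rose and 1 fell. The neural stem cell filament gene Nes rose by 1.66 and the Notch target Hes5 by 1.64, while Sox2 differed by -0.08 and was not called. Of 6 mesenchyme markers 5 rose (median 1.42, summed intensities 10.55 to 10.87 at E9.5 and 12.26 to 12.45 at E11.5). Of 5 limb markers 0 rose and 0 fell, and the liver and yolk sac, trophoblast and trunk HOX lists had median differences of -0.03, 0.11 and 0.24. Of 8 trunk HOX genes 4 were called higher and 1 lower, of 5 liver and yolk sac markers 1 and 0, and of 4 trophoblast markers 1 and 0. Of 6 heart markers 2 rose and 3 fell, and of 6 skeletal muscle markers 3 rose and 2 fell. Of 5 red cell markers 4 rose and 1 fell, of 6 endothelial markers 1 rose and 2 fell, and of 7 lens and pigment markers 4 rose and 1 fell. Without the E9.5 samples 13 and 15, red cell markers were 2 higher and 0 lower, endothelial markers 0 higher and 3 lower, neuroepithelial markers 3 higher and 0 lower, heart markers 1 higher and 3 lower, limb markers 1 higher and 0 lower, trunk HOX genes 5 higher and 1 lower and lens and pigment markers 3 higher and 1 lower. The parts that shares of neurons, mesenchyme, blood and macrophages play in the differences below were not tested.

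In all, 5632 genes were higher at E11.5 (31.0% of genes tested) and 4887 were lower (26.9%). Among these, 1106 rose at least 2-fold (6.08%) and 872 fell at least 2-fold (4.79%). Differences of at least 4-fold were found for 167 genes that rose and 63 that fell, and differences of at least 8-fold for 41 and 5. For 3622 genes (19.9%) every E11.5 array lay above every E9.5 array, and for 3236 (17.8%) every E11.5 array lay below. Fitted to the 10 arrays of E9.5 and E11.5 alone, 5017 genes were higher and 4333 lower, with 1106 and 872 at least 2-fold. In the fit of all 16 arrays the median difference over all genes was 0.02, and the median SE was 0.11. The plot of differences against intensity shows that changes of this size were found over most of the intensity range.

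**Figure D1:**
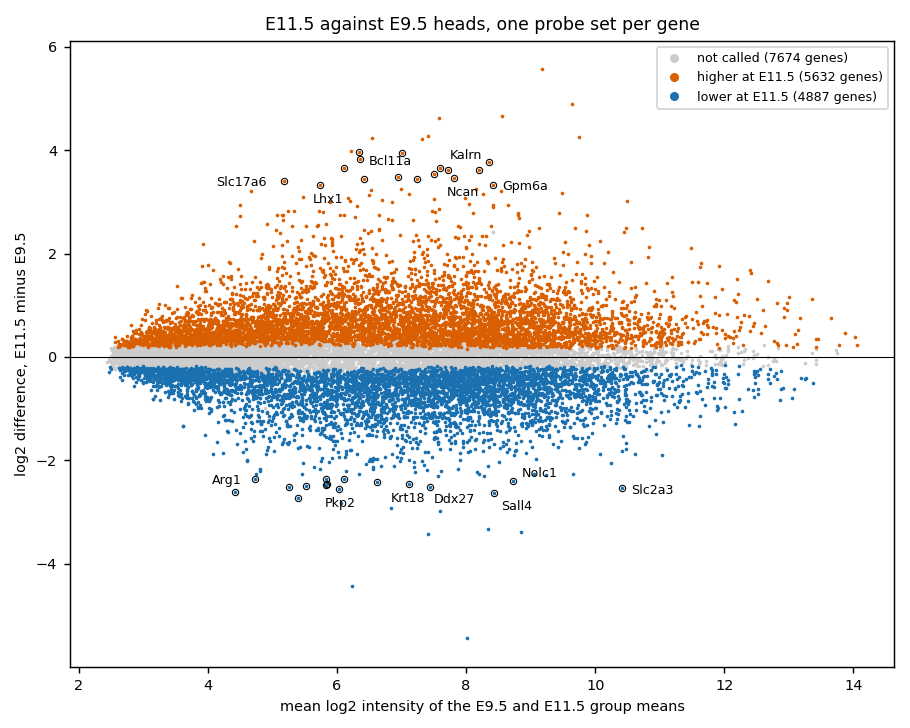
Each point is 1 gene, with the mean of its stage levels (log2 intensity) on the horizontal axis and the log2 difference E11.5 minus E9.5 on the vertical axis. Orange genes (5632) were called higher and blue genes (4887) lower, and circles mark the genes ranked 9 to 24 in each direction, which differed by 3.32 to 3.97 upwards and -2.73 to -2.36 downwards.

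Below the 8 genes with the largest rises, the next 16 named genes included genes of neurons, a connective tissue gene and a blood cell gene. In both directions only called genes whose stages did not overlap were ranked, so lack of overlap in ranked genes is a condition of their choice. Bcl11a, a zinc-finger transcription factor of neurons and blood cells, was between 3.7 and 4.91 (median 4.43) at E9.5 and at 8.4, 8.14, 8.26 and 8.26 at E11.5. The rise was 14.2-fold (log2 difference 3.83 ± 0.16 SE, adjusted p = 1.9e-13), with the same direction in all 6 of its other probe sets. Ncan, which encodes the brain proteoglycan neurocan, was between 5.75 and 6.27 (median 6.1) at E9.5 and at 9.58, 9.51, 9.6 and 9.44 at E11.5. It had the smallest error of these genes (log2 difference 3.46 ± 0.09 SE, adjusted p = 4.5e-16), and its second-brightest probe set rose by 4.23. Lhx1, a LIM homeobox factor of early-born neurons, was between 3.7 and 4.46 (median 4.09) at E9.5 and at 7.49, 7.38, 7.26 and 7.43 at E11.5 (log2 difference 3.32 ± 0.13 SE, adjusted p = 1.1e-13). Slc17a6, the vesicular transporter that loads glutamate into synaptic vesicles, was between 2.81 and 4.17 (median 3.52) at E9.5 and at 6.63, 7.02, 6.87 and 7.03 at E11.5 (log2 difference 3.41 ± 0.17 SE, adjusted p = 3.6e-12). Its E9.5 arrays were near the lower quartile of all intensities, log2 3.58, so its transcript was dim at E9.5 and clear on all 4 later arrays. Gpm6a, a membrane glycoprotein of growing neurites, was between 6.19 and 7.09 (median 6.88) at E9.5 and at 10.04, 9.98, 10.22 and 10.08 at E11.5 (log2 difference 3.33 ± 0.13 SE, adjusted p = 1.1e-13). Kalrn, which encodes kalirin, a protein that shapes dendritic spines, rose by 3.62 ± 0.14 SE, with 4 of its 7 other probe sets called higher and 1 lower. Celf5, a neuronal RNA-binding protein, rose by 3.44 ± 0.14, and Sema6c, a transmembrane semaphorin, by 3.77 ± 0.14.

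Col1a1, the main collagen of skin and bone, was between 5.52 and 6.15 (median 6.01) at E9.5 and at 9.51, 9.11, 9.94 and 9.56 at E11.5 (log2 difference 3.61 ± 0.15 SE, adjusted p = 3.2e-13), and its second probe set rose by 1.89. St18, a zinc-finger factor related to Myt1, rose by 3.65 ± 0.29 SE and its second probe set by 0.95. Srr, which makes D-serine, rose by 3.45 ± 0.19, and 3 of its 5 other probe sets rose too. Laptm5, a lysosomal membrane protein of blood cells, rose by 3.94 ± 0.22 on the probe set used, but 1 of its 4 other probe sets was called higher and its second-brightest differed by 0.03. For some genes in this rank range, listed next, the second-brightest probe set did not rise. Nrip2, a nuclear receptor interacting protein, rose by 3.97 ± 0.16, but neither of its 2 other probe sets was called higher. Myt1, a zinc-finger factor of neuronal differentiation, rose by 3.48 on one probe set and differed by -0.16 on the other. Cacng7, an auxiliary subunit of glutamate receptors, rose by 3.54 on one and differed by -0.07 on the other. Dennd6b rose by 3.66 on its brightest probe set and differed by -0.37 on the second-brightest, and of its 3 other probe sets 1 was called higher and 1 lower. No call was made on the second-brightest probe set of Nrip2 (0.16).

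Among falls, the genes ranked 9 to 24 held genes of the early embryo, of epithelia, of glucose uptake and of the nucleolus, the site of ribosome assembly. Slc2a3, the glucose transporter GLUT3, was between 11.53 and 11.82 (median 11.73) at E9.5 and at 9.31, 9.33, 8.82 and 9.12 at E11.5. It fell 5.82-fold (log2 difference -2.54 ± 0.1 SE, adjusted p = 2.1e-13), and all 3 other probe sets fell. Sall4, a zinc-finger factor of pluripotent cells, was between 9.61 and 9.96 (median 9.76) at E9.5 and at 7.2, 7.21, 6.82 and 7.23 at E11.5 (log2 difference -2.64 ± 0.14 SE, adjusted p = 8.3e-12). Nolc1, a nucleolar chaperone of small nucleolar ribonucleoproteins, was between 9.66 and 10.17 (median 9.98) at E9.5 and at 7.64, 7.53, 7.19 and 7.74 at E11.5 (log2 difference -2.4 ± 0.11 SE, adjusted p = 7.8e-13), and both other probe sets fell. Krt18, a keratin of simple epithelia, was between 7.85 and 8.72 (median 8.39) at E9.5 and at 6.11, 5.86, 5.7 and 5.86 at E11.5 (log2 difference -2.46 ± 0.13 SE, adjusted p = 6.0e-12). Pkp2, a desmosome protein, fell by 2.55 ± 0.15 SE, and Rhpn2 fell by 2.61 ± 0.14. The E11.5 arrays of Rhpn2 had a mean of 3.11, below the lower quartile of all intensities. Arg1, the urea cycle enzyme arginase, was between 4.75 and 6.51 (median 6.05) at E9.5 and at 3.46, 3.81, 3.46 and 3.46 at E11.5 (log2 difference -2.36 ± 0.22 SE, adjusted p = 1.9e-08), with a wide spread at E9.5.

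Tcfl5, a basic helix-loop-helix factor, fell by 2.49, Trim6, an ubiquitin ligase, fell by 2.51, and the zinc-finger gene Zfp930 fell by 2.47. Large2, a glycosyltransferase that extends the sugars of dystroglycan, fell by 2.37, Wfikkn1, a secreted protein that binds growth factors of the TGF-beta family, fell by 2.36, and Ccdc160 fell by 2.41. Rab26os, annotated as a transcript from the strand opposite to Rab26, fell by 2.73. Gla, the lysosomal enzyme alpha-galactosidase A, fell by 2.46 on its brightest probe set, while neither other probe set was called. Ddx27, a nucleolar RNA helicase, was between 8.54 and 9.03 (median 8.66) at E9.5 and at 6.0, 6.41, 5.91 and 6.44 at E11.5 (log2 difference -2.51 ± 0.11 SE, adjusted p = 4.2e-13), but its other probe set differed by 0.27.

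Of 776 genes that rose at least 2-fold and had a second probe set, 438 (56.4%) were called higher on the second-brightest one as well, 90 were called lower on it and 248 were not called. Of 475 such genes that fell, 308 (64.8%) fell on both, 43 were called higher on the second and 124 were not called. The median difference of the second probe set was 0.41 for the risers and -0.5 for the fallers. Over all 9010 genes with a second probe set, 2239 were higher and 2702 lower on it. Counts of list members on second-brightest probe sets below stand beside these. Probe sets of a gene can detect different transcript ends, and which of them measures the main transcript was not tested.

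**Figure D2:**
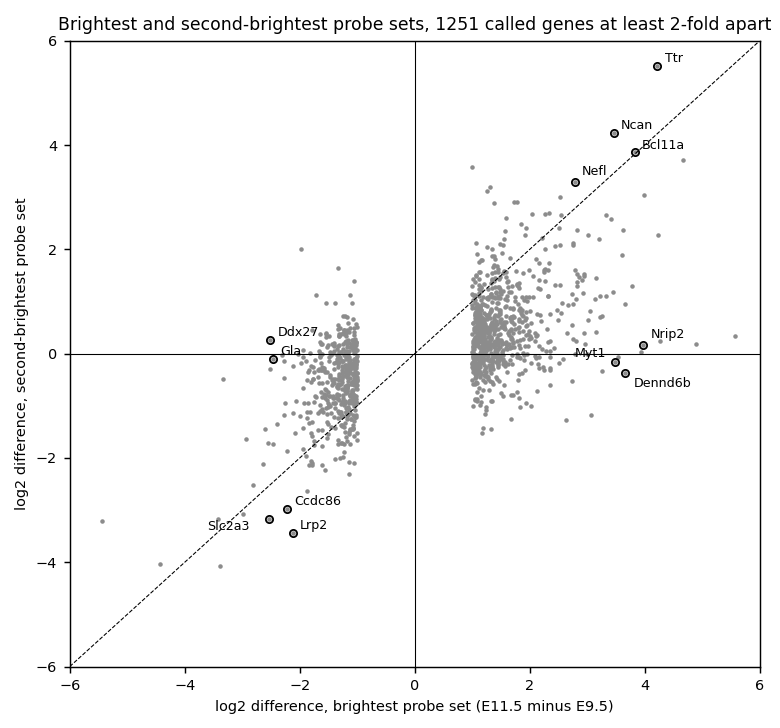
Each point is a called gene at least 2-fold apart that had a second probe set (776 that rose and 475 that fell), with the log2 difference (E11.5 minus E9.5) of the brightest probe set on the horizontal axis and of the second-brightest on the vertical axis, and the dashed line marks equal values. Bcl11a, Ncan and Ccdc86 lie near or beyond the line, while Nrip2, Dennd6b, Myt1, Gla and Ddx27 lie near 0 on the vertical axis.

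Outside these ranks, the genes with the largest rise on both of their brightest probe sets included further genes of neurons. Nefl, the light neurofilament chain, was between 6.23 and 8.3 (median 7.61) at E9.5 and at 10.27, 10.17, 10.33 and 10.01 at E11.5 (log2 difference 2.78 ± 0.29 SE, adjusted p = 6.2e-08), and its second probe set rose by 3.29. Its E9.5 arrays spread widely, and without samples 13 and 15 the difference was 2.28. Stmn2 and Stmn3, stathmins that destabilise microtubules in growing axons, rose by 3.21 and 2.54. Elavl3, an RNA-binding protein of young neurons, rose by 2.51, Mapt, the axonal microtubule-binding protein tau, by 2.27, Syt4, a synaptotagmin of secretory vesicles, by 2.53, Ncam1, the neural cell adhesion molecule, by 2.34, and Gpm6b, the relative of Gpm6a, by 2.21. Nfib, a nuclear factor I protein of glial and neuronal maturation, was between 4.25 and 5.21 (median 4.73) at E9.5 and at 7.2, 7.46, 7.69 and 7.56 at E11.5 (log2 difference 2.75 ± 0.14 SE, adjusted p = 2.9e-12). Id4, an inhibitor of basic helix-loop-helix factors in neural progenitors, was between 8.13 and 9.72 (median 9.07) at E9.5 and at 11.98, 12.03, 11.9 and 12.09 at E11.5 (log2 difference 3.01 ± 0.22 SE, adjusted p = 4.1e-10).

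The genes with the largest fall on both probe sets included genes of the nucleolus, glucose use and early epithelium. Ccdc86, a nucleolar protein, was between 8.22 and 8.58 (median 8.28) at E9.5 and at 6.32, 6.41, 5.29 and 6.38 at E11.5 (log2 difference -2.23 ± 0.16 SE, adjusted p = 2.9e-10), and its second probe set fell by 2.97. Nhp2, a core protein of the particles that guide pseudouridine formation in ribosomal RNA, was between 11.24 and 11.39 (median 11.31) at E9.5 and at 9.64, 9.69, 9.08 and 9.61 at E11.5 (log2 difference -1.81 ± 0.1 SE, adjusted p = 1.1e-11). Wdr46, a nucleolar scaffold protein, fell by 2.23, Polr1e, a subunit of RNA polymerase I, fell by 1.94, and Yars2, the mitochondrial tyrosyl-tRNA synthetase, fell by 1.78. Lrp2, the endocytic receptor megalin of the neuroepithelial surface, was between 7.26 and 7.76 (median 7.68) at E9.5 and at 5.81, 5.64, 5.36 and 5.17 at E11.5 (log2 difference -2.12 ± 0.13 SE, adjusted p = 4.1e-11), and its second probe set fell by 3.44. Slc2a1, the glucose transporter GLUT1, fell by 1.88. Aldoa, the glycolytic enzyme aldolase A, fell by 1.89, with 3 of its 4 other probe sets lower and 1 higher, and Krt8, the partner keratin of Krt18, fell by 1.79. Greb1, an estrogen-responsive gene in breast cells, fell by 1.84.

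Genes that make ribosomal and transfer RNA fell more often than they rose. Of 10 genes of RNA polymerase I, which transcribes ribosomal RNA, 7 fell and 2 rose, with a median of -1.07 against 0.02 over all genes. Polr1a, its largest subunit, was between 8.3 and 8.86 (median 8.44) at E9.5 and at 7.53, 7.06, 6.57 and 6.79 at E11.5 (log2 difference -1.54 ± 0.14 SE, adjusted p = 1.2e-08). Taf1d, a subunit of its promoter selectivity factor, fell by 1.75, and 6 of 6 other probe sets fell. The polymerase I factors Ubtf and Rrn3 were higher by 0.93 and 0.23, but the second probe set of Ubtf differed by -0.8, and Rrn3 was not called without the E11.5 sample 52 (0.18). Of 11 genes of RNA polymerase III, which makes transfer RNA, 5 fell and 2 rose (median -0.14). Its paralogous subunits moved apart: Polr3g, the form of pluripotent cells, was between 7.38 and 7.73 (median 7.61) at E9.5 and at 5.64, 5.73, 5.67 and 5.46 at E11.5 (log2 difference -1.97 ± 0.1 SE, adjusted p = 2.6e-12), and Polr3gl, the form of differentiated cells, was between 5.39 and 5.95 (median 5.67) at E9.5 and at 6.13, 6.61, 6.23 and 6.48 at E11.5 (log2 difference 0.69 ± 0.12 SE, adjusted p = 6.8e-05). The stages did not overlap for either subunit. Polr3k rose by 2.03 on its brightest probe set, but 3 of its 5 other probe sets were called lower and the other 2 were not called.

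Most cytosolic aminoacyl-tRNA synthetases, the enzymes that load amino acids onto transfer RNA, fell. Of 19 measured, 16 fell, 0 rose and 3 were not called, with a median of -0.78 and a range of -1.68 to 0.15, where 26.9% of all genes fell. Without the E9.5 samples 13 and 15, 1 was called higher and 16 lower. On the second-brightest probe sets 1 was higher and 8 lower of 11. Mars1, for methionine, was between 10.12 and 10.33 (median 10.16) at E9.5 and at 8.54, 8.45, 8.51 and 8.5 at E11.5 (log2 difference -1.68 ± 0.07 SE, adjusted p = 1.3e-13). Cars, for cysteine, fell by 1.28, Tars, for threonine, fell by 1.16, and Gars, for glycine, fell by 1.12. Of 18 amino acid transporters 7 fell and 4 rose (median -0.03). Slc38a4 fell by 1.84, the glutamine carrier Slc1a5 fell by 1.16 and the cationic carrier Slc7a3 fell by 1.13, whereas Slc7a5, the light chain of the leucine transporter, rose by 0.35. The sign was the opposite on the second-brightest probe set for Cars (0.04).

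Most mitochondrial ribosomal protein genes fell. Of 34 mitochondrial ribosomal proteins 29 fell and 1 rose (median -0.63), the large subunit with 15 of 18 and the small subunit with 14 of 16. Mrpl12, of the large subunit, was between 10.14 and 10.46 (median 10.24) at E9.5 and at 8.68, 8.76, 8.35 and 8.8 at E11.5 (log2 difference -1.63 ± 0.09 SE, adjusted p = 1.5e-11). Mrps10, of the small subunit, fell by 1.25, and the single riser was Mrps33, by 0.55. Of 12 proteins of import across the inner membrane 9 fell and 2 rose. Timm9, a small chaperone between the membranes, fell by 1.63, and Timm23, the channel subunit, fell by 1.22. Of 6 outer membrane proteins 3 fell and 0 rose, with Tomm40, the channel, lower (log2 difference -0.7). On the second-brightest probe sets the inner membrane list was 3 higher and 2 lower of 6 (median 0.13) and all import genes together were 5 higher and 4 lower of 10, so the excess of fallers was not seen there. Of 18 nuclear pore proteins 11 fell and 4 rose, and of 14 carriers 6 fell and 4 rose. When every probe set of a gene was averaged, the risers of both lists went from 8 to 0. Nup43 fell by 1.23 and Rcc1, the exchange factor of Ran, fell by 0.87. Calls were not shared by the second-brightest probe set of Mrps10 (-0.25).

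Transcripts of most listed enzymes of purine and pyrimidine metabolism fell. Of 12 purine enzymes 9 fell, and of 10 enzymes for pyrimidines and deoxynucleotides 7 fell, with 2 risers in all and a median of -0.68. Adsl, which acts at a pair of steps of purine synthesis, was between 8.71 and 9.01 (median 8.82) at E9.5 and at 7.2, 7.47, 6.89 and 7.19 at E11.5 (log2 difference -1.65 ± 0.09 SE, adjusted p = 1.4e-11). Gart, which carries several purine steps in 1 protein, fell by 1.23, and all 3 other probe sets fell. Cad, the enzyme that starts pyrimidine synthesis, was between 9.38 and 9.56 (median 9.5) at E9.5 and at 8.42, 8.23, 8.28 and 8.36 at E11.5 (log2 difference -1.15 ± 0.07 SE, adjusted p = 8.2e-11), and Dut, which keeps uracil out of DNA, fell by 1.21. In serine and glycine metabolism 6 of 7 enzymes fell, with Shmt1 and Shmt2, which pass a carbon from serine to folate, lower (log2 differences -1.08 and -1.03; 1 of 3 other probe sets of Shmt2 rose). In the folate cycle 5 of 10 fell and 2 rose. Mthfd1l, which makes formate in mitochondria, was between 9.41 and 9.64 (median 9.47) at E9.5 and at 8.07, 8.29, 8.36 and 8.04 at E11.5 (log2 difference -1.3 ± 0.08 SE, adjusted p = 6.2e-11). Aldh1l2, which oxidises formyl-folate in mitochondria, went the other way and was between 4.52 and 4.95 (median 4.64) at E9.5 and at 6.94, 6.86, 6.86 and 6.71 at E11.5 (log2 difference 2.18 ± 0.08 SE, adjusted p = 1.1e-13). All 3 measured methionine cycle genes fell, and Mtrr, which reactivates methionine synthase, fell by 1.14.

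The Myc network moved on both sides. Myc proteins drive growth genes as partners of Max, and Mxd proteins and Mnt take their place at the same DNA word, CACGTG, and repress. Myc was between 7.48 and 8.1 (median 7.72) at E9.5 and at 5.81, 5.75, 5.58 and 5.36 at E11.5 (log2 difference -2.1 ± 0.12 SE, adjusted p = 1.1e-11). Mycn, the form of neural progenitors, was between 10.11 and 10.31 (median 10.24) at E9.5 and at 9.89, 9.76, 9.8 and 10.02 at E11.5 (log2 difference -0.35 ± 0.08 SE, adjusted p = 6.1e-04). Mxd4 rose by 1.16, Mxd3 by 0.97, Mxi1 by 0.78, Mxd1 by 0.78 and Mnt by 0.7, while Max differed by -0.14 and was not called. Of 12 genes taken from textbooks as Myc targets 10 fell and 0 rose (median -0.69), where 26.9% of all genes fell. On the second-brightest probe sets these targets were 2 higher and 7 lower of 9. Ncl, the nucleolar protein nucleolin, was between 12.06 and 12.48 (median 12.28) at E9.5 and at 10.86, 11.07, 10.83 and 11.04 at E11.5 (log2 difference -1.33 ± 0.09 SE, adjusted p = 8.8e-11), and 4 of 4 other probe sets fell. Ldha, lactate dehydrogenase A, fell by 1.02 and Odc1, ornithine decarboxylase, fell by 0.7. Second-brightest probe sets with the opposite sign were those of Mnt (-0.24). A difference short of a call was measured on the second-brightest probe set of Mycn (-0.23).

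The word CACGTG was searched for on both strands in windows of 300 bases, from 250 before to 50 after the start of a gene, in the RefSeq annotation of GRCm38.p6. A window was found for 14367 of 18193 genes, and 9.04% of these held the word. It was present in 12.6% of 693 windows of genes that fell at least 2-fold and in 6.49% of 863 of those that rose. This order was not particular to CACGTG. Other searched words holding CG were also commoner in fallers: TTTCCCGC (2.74% against 1.04%), TTTGGCGC (1.15% against 0.348%) and GCATGCGC (5.34% against 3.59%). The words without CG were divided. CAGATG (10.4% against 14.3%) and CAGCTG (13.6% against 17.7%) were rarer in fallers. CCAAT (38.7% against 38.1%) and TTTGAA (12.4% against 11.9%) were slightly commoner in them. The median number of CG pairs per window was 22 in fallers, 18 in risers and 17 in all windows. CACGTG was in 4 of 10 windows of the textbook targets, 4 of 12 of the tRNA synthetases, 3 of 20 of the nucleotide enzymes and 3 of 29 of the mitochondrial ribosomal proteins. These shares are descriptions of the windows and were not tested. The windows of 3 genes that fell are given because they differ in the number of such words, which stand in capitals: Cdk4, a G1 kinase, has 4, Ldha has 2 and Tars has 1. They are at chr10:127063285-127063584 (plus strand), chr7:46845554-46845853 (plus strand) and chr15:11399609-11399908 (minus strand), each printed 5′ to 3′ along its gene.
Cdk4: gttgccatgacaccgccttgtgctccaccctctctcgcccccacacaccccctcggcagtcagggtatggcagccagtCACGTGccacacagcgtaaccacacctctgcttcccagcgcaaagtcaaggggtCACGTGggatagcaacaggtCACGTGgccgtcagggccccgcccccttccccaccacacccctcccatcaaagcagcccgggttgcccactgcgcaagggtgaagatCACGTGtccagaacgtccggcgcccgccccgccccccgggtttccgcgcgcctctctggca
Ldha: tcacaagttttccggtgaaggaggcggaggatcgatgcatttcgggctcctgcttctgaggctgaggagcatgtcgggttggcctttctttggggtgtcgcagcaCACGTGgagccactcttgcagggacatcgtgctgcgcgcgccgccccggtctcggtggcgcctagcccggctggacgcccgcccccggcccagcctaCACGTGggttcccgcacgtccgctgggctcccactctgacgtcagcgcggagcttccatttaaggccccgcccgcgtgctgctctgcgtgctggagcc
Tars: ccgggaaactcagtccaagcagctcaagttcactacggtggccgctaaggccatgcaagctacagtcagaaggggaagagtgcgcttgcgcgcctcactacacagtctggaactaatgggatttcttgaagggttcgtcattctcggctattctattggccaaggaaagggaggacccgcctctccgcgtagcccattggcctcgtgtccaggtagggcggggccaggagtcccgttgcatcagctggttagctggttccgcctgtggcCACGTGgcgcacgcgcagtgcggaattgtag

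Cdk4, with 4 words, was between 11.82 and 12.25 (median 12.0) at E9.5 and at 11.46, 11.6, 11.47 and 11.46 at E11.5 (log2 difference -0.51 ± 0.08 SE, adjusted p = 2.4e-05). Tars, with 1 word, was between 9.59 and 9.87 (median 9.72) at E9.5 and at 8.6, 8.71, 8.37 and 8.58 at E11.5 (log2 difference -1.16 ± 0.08 SE, adjusted p = 2.8e-10).

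Genes of energy metabolism were listed as forms of early or dividing cells and as neural forms, a list that also holds sodium pump and creatine kinase genes. Of 12 isoforms of early or dividing cells 10 fell and 1 rose (median -1.0). Beside Slc2a3, Slc2a1 and Aldoa, the lactate exporter Slc16a3 was between 7.06 and 7.8 (median 7.46) at E9.5 and at 5.52, 5.17, 4.91 and 5.21 at E11.5 (log2 difference -2.26 ± 0.13 SE, adjusted p = 2.3e-11), and Hk2, an inducible hexokinase, fell by 1.04. The riser was Atp1b1, a sodium pump subunit, by 1.55. Of 9 neural isoforms 5 rose and 3 fell (median 0.32). Ckb, brain creatine kinase, was between 8.39 and 9.92 (median 9.26) at E9.5 and at 11.55, 11.66, 11.62 and 11.79 at E11.5 (log2 difference 2.41 ± 0.21 SE, adjusted p = 8.1e-09), and Ldhb, lactate dehydrogenase B, was between 7.96 and 8.96 (median 8.28) at E9.5 and at 9.92, 9.72, 9.61 and 9.82 at E11.5 (log2 difference 1.4 ± 0.16 SE, adjusted p = 2.0e-07). Ldhb rose in all 3 other probe sets. Hk1, the hexokinase of brain, rose by 0.87, while the neural isoform genes Aldoc and Got1 fell (log2 differences -0.54 and -0.83) and Eno2 differed by -0.11 and was not called. On the second-brightest probe sets the neural list was 1 higher and 2 lower of 6 (median -0.09), so its excess of risers was not seen there. The opposite sign was measured on the second-brightest probe set of Hk1 (-0.15). No call was made on the second-brightest probe set of Aldoc (-0.02).

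**Figure D3:**
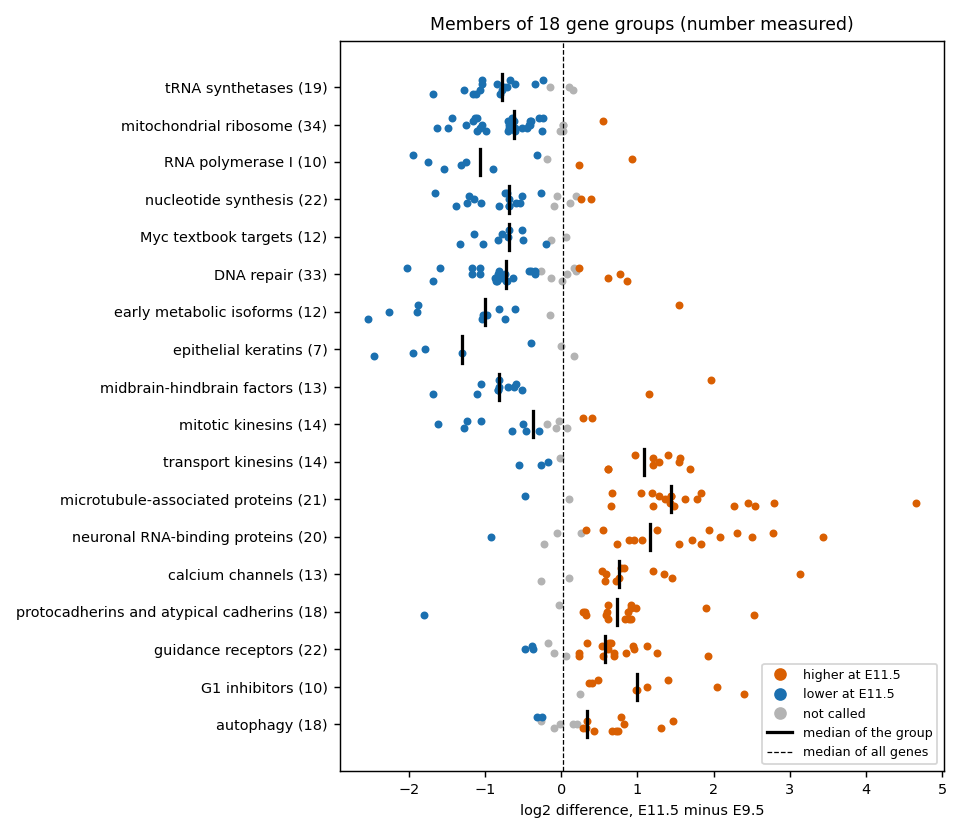
Each row is a gene group with the number of members measured, each point a member's log2 difference E11.5 minus E9.5, each black bar the group's median and the dashed line the median of all genes, 0.02. The growth, repair, keratin and midbrain-hindbrain groups have medians between -1.3 and -0.63, and the neuronal groups shown have medians between 0.58 and 1.44.

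Most listed inhibitors of the cell cycle rose. Of 10 listed inhibitors and exit genes 9 rose and 0 fell (median 0.99). Cdkn2c, an inhibitor of Cdk4 and Cdk6, was between 4.95 and 5.46 (median 5.32) at E9.5 and at 7.47, 7.79, 7.72 and 7.71 at E11.5 (log2 difference 2.4 ± 0.1 SE, adjusted p = 4.1e-13). Cdk5r1, the activator of the neuronal kinase Cdk5, was between 6.04 and 6.49 (median 6.13) at E9.5 and at 8.12, 7.94, 8.65 and 8.16 at E11.5 (log2 difference 2.04 ± 0.13 SE, adjusted p = 8.3e-11), and all 3 other probe sets rose. Btg2, an antiproliferative gene of progenitors about to form neurons, rose by 1.4, Cdkn1c, which encodes p57, by 1.12, and Cdkn2d, a relative of Cdkn2c, by 0.98. Of 15 cyclins, kinases and pocket proteins 6 rose and 6 fell. Cyclin E genes Ccne2 and Ccne1 fell (log2 differences -0.87 and -0.7) and Cdk6 fell by 0.84, whereas Rb1, the retinoblastoma protein that holds cells in G1, rose by 0.8. The second-brightest probe sets of G1 cyclins and kinases were 3 higher and 6 lower of 14. The sign was the opposite on the second-brightest probe set for Rb1 (-0.23).

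Kinesins, motors that move along microtubules, were listed by task. Of 14 mitotic kinesins 8 fell and 2 rose (median -0.37), and of 14 kinesins of axonal and vesicle transport 10 rose and 3 fell (median 1.09). Kif20a, a motor of cytokinesis, was between 9.58 and 10.13 (median 9.74) at E9.5 and at 8.41, 8.41, 7.59 and 8.29 at E11.5 (log2 difference -1.62 ± 0.14 SE, adjusted p = 4.4e-09). Kifc1, a minus-end motor that focuses spindle poles, was between 6.54 and 7.16 (median 6.76) at E9.5 and at 5.36, 5.67, 5.43 and 5.58 at E11.5 (log2 difference -1.28 ± 0.11 SE, adjusted p = 5.7e-09), and Cenpe, which carries chromosomes to the spindle equator, fell by 1.23. Kif11, the motor that pushes spindle poles apart, differed by -0.19 and was not called. Kif5a, a neuronal form of conventional kinesin, was between 5.13 and 5.83 (median 5.55) at E9.5 and at 7.37, 7.04, 7.19 and 7.22 at E11.5 (log2 difference 1.69 ± 0.12 SE, adjusted p = 3.5e-10), and the ubiquitous form Kif5b fell by 0.55, although 2 of its 5 other probe sets rose. Kif17, a dendritic motor, rose by 1.54, and Kif3c, a neuronal partner of Kif3a, by 1.4. Calls were not shared by the second-brightest probe set of Kif17 (0.21).

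**Figure D4:**
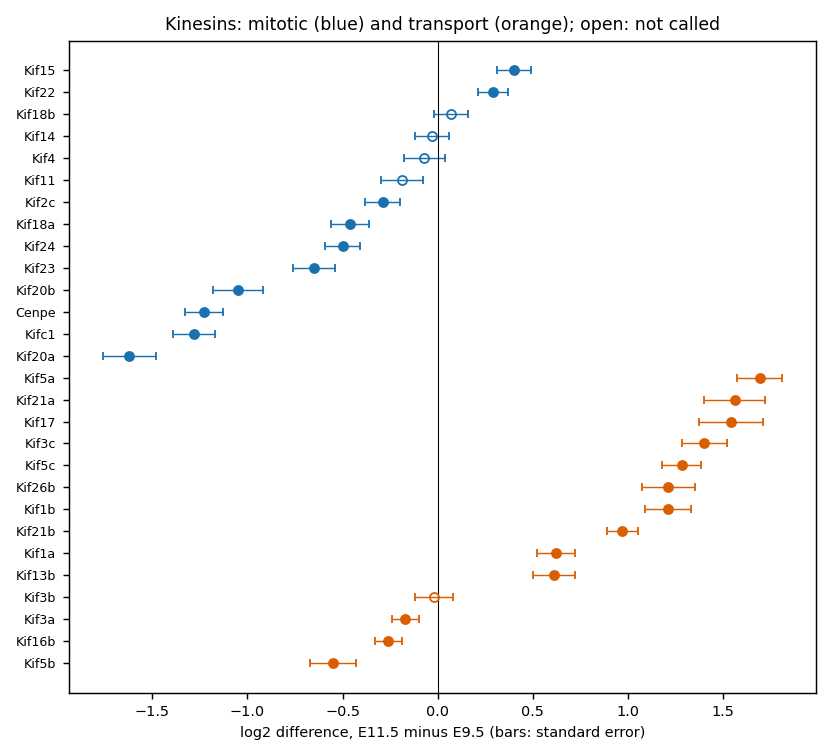
Each point is the log2 difference E11.5 minus E9.5 of a kinesin with its standard error, blue for mitotic and orange for transport kinesins, and open points were not called. Mitotic kinesins run from -1.62 (Kif20a) to 0.4 (Kif15) and transport kinesins from -0.55 (Kif5b) to 1.69 (Kif5a).

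The word TTTGAA, known as the cell cycle homology region of mitotic promoters, was searched for in the same windows on both strands, and neither it nor CACGTG contains the other. It was present in 10 of 13 windows of mitotic kinesins, 1 of 10 of transport kinesins and 13.3% of all windows. Mitotic kinesins with the word did not move alike: 4 fell, 2 rose and 4 were not called, and the 3 without it all fell. The windows of Kif20b, Kif23 and Kifc1 are given because these motors of the spindle and of cytokinesis fell and carry the word within a few bases of the start. Capitals mark the word or its reverse complement. The windows are at chr19:34922108-34922407 (plus strand), chr9:61946750-61947049 (minus strand) and chr17:33890584-33890883 (minus strand).
Kif20b: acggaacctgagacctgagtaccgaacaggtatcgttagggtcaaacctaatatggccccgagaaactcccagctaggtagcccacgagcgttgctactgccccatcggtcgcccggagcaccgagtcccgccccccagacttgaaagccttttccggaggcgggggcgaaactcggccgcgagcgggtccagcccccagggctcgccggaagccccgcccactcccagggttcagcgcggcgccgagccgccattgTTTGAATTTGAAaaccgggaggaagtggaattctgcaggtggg
Kif23: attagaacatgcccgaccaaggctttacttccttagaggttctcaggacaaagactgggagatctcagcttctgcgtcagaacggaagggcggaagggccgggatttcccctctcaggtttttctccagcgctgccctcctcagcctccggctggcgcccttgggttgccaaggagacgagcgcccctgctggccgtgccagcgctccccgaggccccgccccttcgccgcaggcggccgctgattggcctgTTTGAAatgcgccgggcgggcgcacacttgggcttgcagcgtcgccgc
Kifc1: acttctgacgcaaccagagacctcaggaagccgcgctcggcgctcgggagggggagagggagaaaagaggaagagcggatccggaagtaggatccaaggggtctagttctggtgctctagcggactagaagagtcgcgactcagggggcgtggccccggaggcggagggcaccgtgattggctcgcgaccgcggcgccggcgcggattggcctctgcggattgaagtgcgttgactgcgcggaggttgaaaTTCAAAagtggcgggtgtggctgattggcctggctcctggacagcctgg

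In Kif20b the word stands 7 and 13 bases after the start, in Kif23 2 and in Kifc1, as the reverse complement, 1 base after it. Kif20b was between 8.63 and 9.45 (median 8.97) at E9.5 and at 7.86, 8.06, 7.75 and 8.2 at E11.5 (log2 difference -1.05 ± 0.13 SE, adjusted p = 7.2e-07), and Kif23 fell by 0.65.

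DNA repair genes fell more often than they rose. Of 17 genes of mismatch repair, excision repair and end joining 13 fell and 4 rose, and of 16 genes of homologous recombination and the Fanconi pathway 10 fell and 0 rose (median of both -0.72). The largest falls were in the end-joining complex that binds broken DNA. Xrcc5, which encodes Ku80, was between 8.08 and 8.45 (median 8.15) at E9.5 and at 6.11, 6.36, 5.67 and 6.57 at E11.5 (log2 difference -2.03 ± 0.13 SE, adjusted p = 6.0e-11), and Xrcc6, which encodes its partner Ku70, was between 7.83 and 8.29 (median 8.1) at E9.5 and at 6.38, 6.39, 6.02 and 6.86 at E11.5 (log2 difference -1.68 ± 0.13 SE, adjusted p = 8.7e-10). The kinase they recruit, Prkdc, fell by 1.06. Among mismatch repair genes Msh6 fell by 1.17 and Exo1 fell by 1.07. Brip1, a helicase that binds Brca1, fell by 1.59 and Fancb fell by 1.17. Ercc1, an excision nuclease subunit, and Neil3, a glycosylase of oxidised bases in progenitors, rose by 0.86 and 0.61. Of 14 p53 targets 5 rose and 3 fell, and of 18 apoptosis genes 6 rose and 6 fell. Trp53inp1, induced by p53 under stress, rose by 1.34 and Bcl2l1, which encodes the survival protein Bcl-xL, by 1.18, while Bid, which links death receptors to mitochondria, fell by 1.2. Second-brightest probe sets with the opposite sign were those of Ercc1 (-0.19). A difference short of a call was measured on the second-brightest probe set of Neil3 (0.48).

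In neurons the BAF complex exchanges a few subunits for neuronal relatives. Of 5 neuronal subunits 5 rose (median 1.09), where 31.0% of all genes did. Actl6b was between 4.09 and 4.64 (median 4.35) at E9.5 and at 5.75, 5.46, 5.93 and 5.91 at E11.5 (log2 difference 1.4 ± 0.12 SE, adjusted p = 4.1e-09), and Smarcd3 was between 6.17 and 7.18 (median 6.96) at E9.5 and at 7.91, 8.08, 7.98 and 8.17 at E11.5 (log2 difference 1.23 ± 0.14 SE, adjusted p = 4.1e-07). Dpf1 rose by 1.09 and Ss18l1 by 0.73. Of 5 progenitor subunits 2 fell and 2 rose, with differences from -0.52 to 1.07. The largest change among them was thus a rise, of at least 2-fold. Phf10 fell by 0.52 and Ss18 fell by 0.41, and Actl6a differed by -0.16 and was not called. Of 8 shared subunits 4 rose and 1 fell. No call was made on the second-brightest probe set of Dpf1 (0.17) and Ss18 (-0.04).

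Among DNA methylation genes Dnmt3b, the methyltransferase of the early embryo, was between 8.98 and 9.67 (median 9.23) at E9.5 and at 8.14, 8.15, 7.78 and 7.96 at E11.5 (log2 difference -1.27 ± 0.12 SE, adjusted p = 1.2e-08), and Dnmt3a, its later relative, rose by 0.4. Tet2, which oxidises methylcytosine, was between 5.55 and 6.46 (median 6.23) at E9.5 and at 8.09, 6.98, 7.79 and 7.67 at E11.5 (log2 difference 1.45 ± 0.17 SE, adjusted p = 5.2e-07), and Tet3 differed by 0.36 and was not called. Mbd3, a subunit of the NuRD repressor, fell by 1.59, and Zbtb33, which encodes Kaiso, rose by 0.93. In all 4 of 14 rose and 5 fell. Of 26 Polycomb subunits 10 rose and 10 fell (median -0.09). Eed, a core subunit of PRC2, fell by 0.78, Phf1, an accessory subunit, rose by 1.21, and Ezh2, its methyltransferase, differed by -0.1 and was not called. Of 15 histone variants and HMG proteins 7 rose and 3 fell. Hmgn3 rose by 1.2, and H1f10, a linker histone, by 0.66. Hmga2, an HMG protein of early progenitors on the heterochronic list, was between 12.44 and 12.99 (median 12.66) at E9.5 and at 12.12, 12.13, 11.95 and 12.04 at E11.5 and fell by 0.61 ± 0.1 SE. Of the 10 genes on that list, which time early development, 7 fell and 1 rose, and Lin28b differed by -0.26 and was not called. Lin28b was dim at both stages, with means of 3.17 at E9.5 and 2.9 at E11.5. Both lay below the lower quartile of all intensities, log2 3.58. Calls were not shared by the second-brightest probe set of Eed (-0.17) and Hmgn3 (0.1).

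RNA-binding proteins that direct neuronal splicing and message stability mostly rose. Of 20 neuronal members 16 rose and 1 fell (median 1.16). Elavl4 was between 5.93 and 7.31 (median 6.73) at E9.5 and at 9.56, 9.57, 9.54 and 9.32 at E11.5 (log2 difference 2.78 ± 0.19 SE, adjusted p = 1.3e-10), Rbfox1 was between 3.91 and 5.58 (median 4.67) at E9.5 and at 6.61, 6.7, 7.44 and 7.1 at E11.5 (log2 difference 2.31 ± 0.22 SE, adjusted p = 2.3e-08), and each rose in all its other probe sets. Srrm4, which switches on neuronal microexons, was between 4.32 and 5.98 (median 4.97) at E9.5 and at 6.75, 6.98, 6.94 and 7.14 at E11.5 (log2 difference 1.94 ± 0.23 SE, adjusted p = 4.0e-07). Celf3 rose by 1.84 and Celf4 by 1.72. Khdrbs3 fell by 0.92. Ptbp1, the repressor of neuronal exons in progenitors, differed by 0.04 on its brightest probe set and was not called, but its second-brightest differed by 4.2, and with the mean of all its probe sets it was called higher (1.4). Ptbp2, its neuronal relative, rose by 0.73. Of 7 progenitor or epithelial members 3 rose and 1 fell, with Esrp1, an epithelial splicing factor, lower (log2 difference -0.79) and its relative Esrp2 higher by 0.85.

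Most microtubule-associated proteins rose. Of 21 microtubule-associated proteins 19 rose and 1 fell (median 1.44). Map1b, of growing axons, was between 7.85 and 8.34 (median 7.95) at E9.5 and at 10.78, 10.39, 11.21 and 10.95 at E11.5 (log2 difference 2.79 ± 0.13 SE, adjusted p = 1.2e-12). Stmn4 rose by 2.45, Crmp1, a semaphorin signal transducer, by 1.83, and Map1a by 1.48. Of 11 tubulins 5 rose and 4 fell. Tubb3, the neuronal beta-tubulin, was between 6.95 and 8.33 (median 8.0) at E9.5 and at 9.08, 8.98, 9.01 and 9.09 at E11.5 (log2 difference 1.28 ± 0.2 SE, adjusted p = 1.1e-05), and Tubb6, of non-neural cells, fell by 1.36. Tubulin genes are near copies, and probes can be shared between them. Among neuronal intermediate filaments Ina and Nefm rose by 2.44 and 2.5, while Nefh, the late heavy chain, and Prph differed by -0.07 and -0.08 and were not called. The second-brightest probe set of Prph differed by 0.95, 2 of its 3 other probe sets were called higher, and with the mean of all it was called higher (0.38). Of 7 keratins 5 fell and 0 rose (median -1.3). Krt7 fell by 1.95 and Krt19 fell by 1.3, both keratins of simple epithelia like Krt8 and Krt18, whereas Krt5 and Krt14, of the basal epidermis, differed by 0.17 and 0.0 and were not called. Beside the keratins, Cdh1, the epithelial cadherin, fell by 1.15 and Epcam differed by -0.05 and was not called, while its second probe set differed by 1.67. In all 3 of 6 surface ectoderm markers fell and 0 rose, with summed intensities (log2) of 9.78 to 10.59 at E9.5 and 9.02 to 9.23 at E11.5. Of these 6 markers 3 (Krt8, Krt18 and Krt5) are keratins counted above, so the markers are no separate measure of the keratins, and the part of surface ectoderm in the fall of keratins was not tested. The opposite sign was measured on the second-brightest probe set of Map1b (-0.01) and Tubb6 (0.09).

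Most genes listed as calcium channel subunits rose. Of 13 genes listed as voltage-gated calcium channel subunits 11 rose and 0 fell (median 0.76). Of 7 sodium channel genes 4 rose and 1 fell, and of 18 potassium channel genes 8 rose and 2 fell. Cacna2d1, an auxiliary calcium channel subunit, was between 3.91 and 5.75 (median 5.16) at E9.5 and at 8.16, 7.83, 8.37 and 7.94 at E11.5 (log2 difference 3.14 ± 0.26 SE, adjusted p = 3.0e-09), and it was 2.69 higher without the E9.5 samples 13 and 15, which were its lowest arrays. Cacna1h, a low-threshold calcium channel, rose by 1.45. Cacng4, on the calcium channel list but a relative of the glutamate receptor subunit Cacng7, rose by 1.35. Scn3a, the embryonic brain sodium channel, was between 3.32 and 4.25 (median 3.39) at E9.5 and at 6.25, 6.0, 6.15 and 6.44 at E11.5 (log2 difference 2.58 ± 0.17 SE, adjusted p = 9.3e-11), and Scn3b rose by 1.47. Kcnd2 and Kcna2, potassium channels of dendrites and axons, rose by 1.57 and 1.57. Kcna1 went against the list and was between 5.61 and 6.51 (median 5.81) at E9.5 and at 4.32, 3.81, 4.25 and 4.09 at E11.5 (log2 difference -1.82 ± 0.15 SE, adjusted p = 2.8e-09). Of 16 glutamate receptor genes 7 rose, of 12 GABA and glycine receptor genes 5, and of 13 acetylcholine and monoamine receptor genes 5, with 3 lower in all. These shares were not far from the 31.0% of all genes that rose. Without the dimmest 25% of genes, or with a floor at each array's lower quartile, the GABA and glycine risers went from 5 to 3. Gabbr1, a metabotropic GABA receptor subunit, rose by 1.68, Gria2, a glutamate receptor subunit that limits calcium entry, by 1.55, and Chrnb2, a nicotinic receptor subunit, by 1.2. The sign was the opposite on the second-brightest probe set for Cacna1h (-0.16), Scn3a (-0.1) and Kcna2 (-0.16).

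Secretory granule proteins rose in 9 of 11 cases, with 0 lower (median 0.7). Cadps, which primes dense-core vesicles, was between 4.91 and 5.58 (median 5.16) at E9.5 and at 7.43, 7.37, 7.4 and 7.38 at E11.5 (log2 difference 2.19 ± 0.13 SE, adjusted p = 1.6e-11), and the granins Scg3, Scg2 and Chgb rose by 1.92, 1.57 and 1.34. Of 18 neuropeptide genes 9 rose and 2 fell. Penk, the precursor of enkephalin, was between 4.0 and 4.81 (median 4.35) at E9.5 and at 6.49, 6.02, 6.66 and 6.66 at E11.5 (log2 difference 2.13 ± 0.14 SE, adjusted p = 1.5e-10). Trh, the thyrotropin-releasing hormone gene, was between 5.81 and 6.75 (median 6.2) at E9.5 and at 4.91, 4.46, 5.13 and 5.13 at E11.5 and fell (log2 difference -1.34 ± 0.16 SE, adjusted p = 5.1e-07). Of 13 neuronal calcium-binding proteins 8 rose and 1 fell, with Calb2, which encodes calretinin, higher by 0.93. Their second-brightest probe sets were 1 higher and 1 lower of 7. Of 10 neurotrophin and GDNF receptor genes 7 rose and 1 fell, and of 8 ligands 2 rose and 2 fell. Gfra1, a GDNF receptor, rose by 1.74, while Ret, its signalling partner, fell by 0.78. Of 15 factors of the cranial sensory ganglia 8 rose and 3 fell. Isl1, a LIM homeobox factor of sensory and motor neurons, was between 7.66 and 8.31 (median 7.88) at E9.5 and at 9.89, 9.83, 10.08 and 9.6 at E11.5 (log2 difference 1.89 ± 0.13 SE, adjusted p = 1.1e-10), Insm1, of newborn neurons and endocrine cells, rose by 2.16 and Neurog2, a proneural factor, by 2.24, whereas Eya2, of the placodes that give rise to the ganglia, fell by 0.89. Second-brightest probe sets with the opposite sign were those of Ret (0.16).

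Adhesion and guidance molecules rose in most families. Of 25 neural immunoglobulin adhesion molecules 17 rose and 2 fell (median 0.5). Cntn2, an axonal contactin, was between 3.81 and 4.58 (median 4.42) at E9.5 and at 7.08, 6.95, 7.41 and 7.06 at E11.5 (log2 difference 2.82 ± 0.13 SE, adjusted p = 1.3e-12). Cadm4 rose by 3.07, Chl1, a close relative of L1cam, by 2.95 and Lsamp by 2.35, while Cntn6 fell by 0.81. Of 18 protocadherins and atypical cadherins 16 rose (median 0.73), and of 18 classical cadherins 7 rose and 3 fell. The share of risers among classical cadherins was not far from the 31.0% of all genes. Fat4, an atypical cadherin of progenitor polarity, was between 6.25 and 7.07 (median 6.54) at E9.5 and at 9.01, 9.16, 9.14 and 9.25 at E11.5 (log2 difference 2.53 ± 0.11 SE, adjusted p = 5.4e-13). The Celsr genes, cadherins of planar polarity, moved in opposite directions. Celsr1, of epithelia and neuroepithelium, was between 6.87 and 7.4 (median 7.12) at E9.5 and at 5.52, 5.29, 5.09 and 5.32 at E11.5 (log2 difference -1.8 ± 0.1 SE, adjusted p = 1.9e-11), and Celsr3, of neurons, was between 4.0 and 5.32 (median 4.39) at E9.5 and at 6.51, 6.32, 6.39 and 6.34 at E11.5 (log2 difference 1.9 ± 0.16 SE, adjusted p = 4.9e-09). Celsr2 rose by 0.88. A difference short of a call was measured on the second-brightest probe set of Lsamp (0.06) and Celsr2 (0.13).

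Of 22 receptors for semaphorins, Slits and netrins 16 rose and 3 fell (median 0.58), and of 26 ligands 13 rose and 2 fell. Dcc, a netrin receptor, was between 5.61 and 6.52 (median 6.31) at E9.5 and at 8.16, 8.09, 8.27 and 8.09 at E11.5 (log2 difference 1.93 ± 0.13 SE, adjusted p = 1.2e-10), Robo1, a Slit receptor, rose by 1.26, and Robo3, which lets axons cross the midline, by 1.12. The ligand genes Slit1 and Ntn1 differed by 0.16 and 0.14 and were not called, and Slit2 rose by 0.77. Of 13 Eph receptors 9 rose and 1 fell. Epha3 was between 5.75 and 7.21 (median 6.52) at E9.5 and at 9.78, 9.99, 9.79 and 9.55 at E11.5 (log2 difference 3.25 ± 0.22 SE, adjusted p = 1.3e-10), and Epha5 rose by 2.27, both in all 3 other probe sets. Of 8 ephrins 5 rose and 3 fell, with Efna3 higher by 1.13. Of 15 integrins 6 rose and 5 fell, and of 16 basement membrane genes 6 rose and 5 fell. These shares were not far from those of all genes, of which 31.0% rose and 26.9% fell. Lamb1 and Lama1, laminin chains of the early embryo, fell (log2 differences -1.17 and -0.97), and Lama4 and Lama2, chains of vessels and muscle, rose by 1.13 and 0.97. On their second-brightest probe sets, integrins were 1 higher and 3 lower of 11, and laminin and basement membrane genes 2 higher and 3 lower of 11. The opposite sign was measured on the second-brightest probe set of Robo3 (-0.21) and Lama4 (-0.25). No call was made on the second-brightest probe set of Robo1 (0.23).

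Regional transcription factors were grouped by territory. Of 13 midbrain-hindbrain genes 11 fell and 2 rose (median -0.81). En1, a homeobox gene of the isthmus, was between 4.95 and 5.52 (median 5.34) at E9.5 and at 3.81, 3.46, 3.58 and 3.58 at E11.5 (log2 difference -1.68 ± 0.1 SE, adjusted p = 3.6e-11), and Fgf8, the organizer signal made there, was between 4.7 and 5.75 (median 5.15) at E9.5 and at 3.81, 4.39, 3.7 and 4.17 at E11.5 (log2 difference -1.1 ± 0.18 SE, adjusted p = 2.2e-05). The risers Gata2 and Gata3 specify midbrain inhibitory neurons and also act in blood cells, and the part of blood cells in their rise was not tested. Gata2 was between 6.27 and 6.61 (median 6.35) at E9.5 and at 8.16, 8.36, 8.8 and 8.18 at E11.5 (log2 difference 1.97 ± 0.11 SE, adjusted p = 1.3e-11) and Gata3 rose by 1.15. Of 24 forebrain and eye factors 12 rose and 7 fell. Among the falls were genes of the early forebrain and eye field. Six6 was between 7.32 and 7.67 (median 7.5) at E9.5 and at 5.88, 5.21, 4.86 and 6.0 at E11.5 (log2 difference -2.02 ± 0.17 SE, adjusted p = 2.5e-09), Hesx1, of the anterior neural ridge and pituitary, fell by 1.36, Otx1 fell by 1.34 and Rax, of the eye field, fell by 1.12. Among the rises were genes of neuron production in the telencephalon. Eomes, of cortical intermediate progenitors, was between 3.46 and 4.17 (median 3.75) at E9.5 and at 6.49, 7.01, 6.17 and 6.39 at E11.5 (log2 difference 2.75 ± 0.15 SE, adjusted p = 8.4e-12), Tbr1, of the first cortical neurons, was between 2.58 and 3.0 (median 2.81) at E9.5 and at 5.0, 5.09, 4.75 and 5.21 at E11.5 (log2 difference 2.18 ± 0.12 SE, adjusted p = 8.1e-12), and Dlx2 and Gsx2, of the ventral telencephalon, rose by 1.42 and 1.18. Of 12 hindbrain and dorsal factors 7 rose and 1 fell, with Zic4 higher by 1.3, Atoh1, of rhombic lip progenitors, by 1.06 and Zic2 lower (log2 difference -0.49). The second-brightest probe sets of midbrain-hindbrain genes were 1 higher and 1 lower of 5, and those of hindbrain and dorsal factors were 1 higher and 0 lower of 7. The sign was the opposite on the second-brightest probe set for Zic4 (-0.15). Calls were not shared by the second-brightest probe set of Gata2 (0.15).

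**Figure D5:**
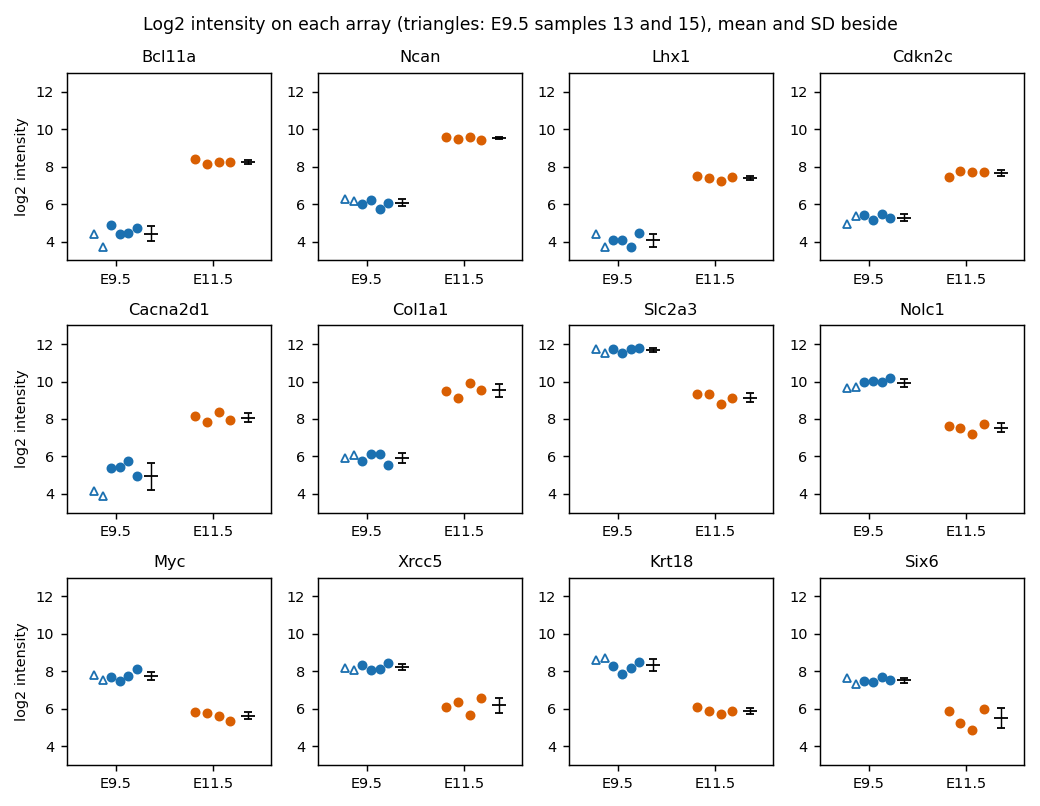
Log2 intensity of 12 genes on each of the 6 E9.5 arrays (blue, with samples 13 and 15 as open triangles) and the 4 E11.5 arrays (orange), with the mean and SD of each stage beside them in black. No stage overlaps the other in these genes, which for those taken from the ranking was a condition of their choice. Samples 13 and 15 are the 2 lowest E9.5 arrays for Cacna2d1.

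Signalling genes were grouped by role. Of 5 Notch ligands 4 rose and 0 fell, and of 4 receptors 3 rose and 1 fell. Dll3, a ligand gene of newborn neurons, was between 7.27 and 7.7 (median 7.45) at E9.5 and at 8.99, 9.06, 8.8 and 8.92 at E11.5 (log2 difference 1.47 ± 0.1 SE, adjusted p = 1.4e-10), and Notch1 was between 8.34 and 8.98 (median 8.69) at E9.5 and at 9.86, 9.74, 9.89 and 9.66 at E11.5 (log2 difference 1.12 ± 0.11 SE, adjusted p = 5.0e-08). Of 13 regulators 9 rose and 1 fell, with Mfng, which adds sugar to the receptors, higher by 1.28. The 9 targets were divided, with 4 higher and 4 lower. Hes5 was between 9.17 and 9.7 (median 9.47) at E9.5 and at 11.08, 11.09, 11.03 and 11.17 at E11.5 (log2 difference 1.64 ± 0.11 SE, adjusted p = 1.3e-10), while Hes1, of the early neuroepithelium and boundaries, was between 7.43 and 7.79 (median 7.53) at E9.5 and at 6.83, 7.04, 6.64 and 6.89 at E11.5 and fell by 0.7. The second-brightest probe sets of the ligands were 1 higher and 1 lower of 3 and those of the regulators 4 higher and 3 lower of 10.

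Of 15 Wnt ligands 4 rose and 5 fell. Wnt7b was between 7.15 and 7.71 (median 7.48) at E9.5 and at 9.01, 8.82, 9.14 and 8.84 at E11.5 (log2 difference 1.5 ± 0.1 SE, adjusted p = 2.2e-10), and Wnt8b, of the caudal forebrain and early isthmus, was between 6.57 and 7.01 (median 6.73) at E9.5 and at 5.32, 5.49, 5.46 and 5.13 at E11.5 (log2 difference -1.4 ± 0.13 SE, adjusted p = 1.4e-08). Of 17 Wnt receptors 7 rose and 4 fell, where 31.0% of all genes rose and 26.9% fell. Fzd5, of the early eye field and forebrain, fell by 1.98, and Fzd10 rose by 1.38. Of 11 secreted inhibitors 6 rose and 1 fell, with Dkk2 higher (log2 difference 1.0). Of 11 transducers and targets 6 rose and 2 fell, with Sp5, an early Wnt target, lower (log2 difference -1.71) and Tcf7l2, a transcriptional effector, higher by 1.08. On the second-brightest probe sets, secreted inhibitors were 1 higher and 2 lower of 6, and transducers and targets were 2 higher and 4 lower of 9. A difference short of a call was measured on the second-brightest probe set of Fzd5 (-0.18) and Fzd10 (0.15).

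Of 17 FGF ligands 7 fell and 4 rose. Fgf15 fell by 1.36 and Fgf18 fell by 1.3, both of which are made with Fgf8 near the isthmus. Of 7 receptors 4 rose and 0 fell, with Fgfr3 higher (log2 difference 0.87), and of 14 feedback and target genes 6 rose and 7 fell. Dusp5, a phosphatase induced by the pathway, fell by 1.07, and Dusp4, another, rose by 0.93. Of 3 Hedgehog ligands 2 rose and 0 fell, of 10 receptors and transducers 2 rose and 3 fell, and of 9 effectors and targets 3 rose and 2 fell. Shh, the signal of the ventral midline, rose by 1.24, but 1 other probe set was called lower. Smo, the membrane transducer, was between 9.58 and 9.69 (median 9.61) at E9.5 and at 8.74, 8.41, 8.25 and 8.15 at E11.5 (log2 difference -1.23 ± 0.1 SE, adjusted p = 1.1e-09), and Gas1, a coreceptor, rose by 0.99. Among Hedgehog genes measured on the second-brightest probe sets, ligands were 0 higher and 2 lower of 2 and effectors and targets 0 higher and 2 lower of 3. The direct targets Ptch1 and Gli1 differed by -0.16 and -0.14 and were not called. Of 11 BMP, activin and TGF-beta receptors 8 rose and 1 fell (median 0.59), and Bmpr2 was between 9.06 and 9.35 (median 9.22) at E9.5 and at 10.42, 10.45, 10.66 and 10.63 at E11.5 (log2 difference 1.33 ± 0.08 SE, adjusted p = 6.9e-11). Of 17 ligands 7 rose and 5 fell, of 11 inhibitors 3 rose and 4 fell, and of 8 targets 2 rose and 2 fell. The ligands Tgfb2 and Gdf11 rose by 1.35 and 1.16, and Fst, which encodes follistatin, fell by 0.89. No call was made on the second-brightest probe set of Smo (-0.02).

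Genes of retinoic acid synthesis moved in both directions. Aldh1a2, the synthesising enzyme of mesenchyme and meninges, was between 3.7 and 4.75 (median 4.36) at E9.5 and at 5.78, 5.49, 6.54 and 5.93 at E11.5 (log2 difference 1.58 ± 0.18 SE, adjusted p = 2.4e-07). Rdh11, a retinol dehydrogenase, fell by 1.49, and Cyp26b1, which degrades retinoic acid, rose by 1.22. In all 4 of 6 synthesis genes rose and 2 fell. The binding proteins Crabp1 and Crabp2 fell (log2 differences -1.09 and -1.49), and the receptors Rarb and Rarg rose by 0.98 and 0.87. Among 13 binding proteins, receptors and response genes 3 rose and 5 fell. Measured on the second-brightest probe sets, synthesis genes were 0 higher and 2 lower of 3, and binding proteins, receptors and response genes were 2 higher and 1 lower of 4. Calls were not shared by the second-brightest probe set of Rdh11 (-0.14).

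Of 10 IGF and insulin ligands, receptors and adaptors 7 rose and 2 fell. Igf1 was between 6.95 and 7.39 (median 7.27) at E9.5 and at 9.43, 9.29, 9.39 and 9.38 at E11.5 (log2 difference 2.16 ± 0.09 SE, adjusted p = 1.5e-13), and all 3 other probe sets rose. The adaptor Irs1 rose by 1.26 and Irs2 fell by 0.43. Igfbp7, a binding protein of vessels, rose by 1.33, among 4 risers and 1 faller of 8 listed binding proteins. Of 20 nuclear receptors 7 rose and 4 fell. Thra, the thyroid hormone receptor of brain, was between 5.91 and 6.44 (median 6.4) at E9.5 and at 8.24, 8.12, 8.6 and 8.32 at E11.5 (log2 difference 2.0 ± 0.1 SE, adjusted p = 4.9e-12), both other probe sets rose, and Thrb differed by 0.2 and was not called. Of 14 Hippo kinases and effectors 5 rose and 4 fell, close to the 31.0% and 26.9% of all genes. Of 5 Hippo targets 2 rose and 2 fell, with Ccn2 lower (log2 difference -1.48). Hippo kinases and effectors were 1 higher and 4 lower of 11 on the second-brightest probe sets.

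Lysosome and autophagy genes rose more often than they fell. Of 18 autophagy genes 11 rose and 2 fell (median 0.33), and of 24 lysosome genes 13 rose and 8 fell (median 0.34). Over all genes 31.0% rose and 26.9% fell. On the second-brightest probe sets the differences were smaller. Autophagy genes were 4 higher and 2 lower of 16 (median 0.06), and lysosome genes 6 higher and 3 lower of 15 (median 0.11). Map1lc3a, a coat protein of autophagosomes, was between 8.89 and 9.34 (median 9.29) at E9.5 and at 10.66, 10.65, 10.94 and 10.6 at E11.5 (log2 difference 1.47 ± 0.1 SE, adjusted p = 9.2e-11), and Ulk2, a kinase that starts autophagy, rose by 1.31. Tfeb, a transcription factor of lysosome genes, was between 5.39 and 6.38 (median 5.49) at E9.5 and at 7.72, 7.33, 7.59 and 7.11 at E11.5 (log2 difference 1.74 ± 0.16 SE, adjusted p = 1.9e-08). Ctss, a protease of macrophages, was between 4.7 and 5.17 (median 4.75) at E9.5 and at 6.55, 6.89, 6.25 and 6.66 at E11.5 (log2 difference 1.72 ± 0.12 SE, adjusted p = 2.2e-10). Npc1, the cholesterol exporter of lysosomes, went against the list and was between 6.38 and 6.64 (median 6.49) at E9.5 and at 4.32, 4.75, 4.0 and 4.7 at E11.5 (log2 difference -2.06 ± 0.12 SE, adjusted p = 1.4e-11), while its soluble partner Npc2 rose by 1.19. Neu1, a sialidase, fell by 1.26. Macrophage markers moved with this group: 4 of 6 rose and 1 fell, with summed intensities (log2) of 6.44 to 6.79 at E9.5 and 8.24 to 8.58 at E11.5. Their second-brightest probe sets were 1 higher and 0 lower of 4 (median 0.24). These markers include Csf1r and C1qa, named next, so those genes are no separate measure. Csf1r, the growth factor receptor of macrophages, was between 4.32 and 5.21 (median 4.95) at E9.5 and at 7.69, 7.58, 7.75 and 8.04 at E11.5 (log2 difference 2.92 ± 0.16 SE, adjusted p = 9.2e-12). The complement genes C1qa, C1qb and C1qc, which macrophages make, rose by 1.0, 1.41 and 1.46, and the other 4 complement genes were not called. Of 14 interferon and antigen presentation genes 3 rose and 1 fell. The part of macrophages in the rise of Laptm5, Ctss and the C1q genes was not tested. Second-brightest probe sets with the opposite sign were those of Npc2 (-0.09) and C1qb (-0.06).

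The remaining groups moved in both directions. Of 20 chaperones and stress sensors of the endoplasmic reticulum 11 fell and 5 rose (median -0.28), with Manf, a secreted stress-induced factor, lower (log2 difference -1.34) and Hsp90b1, an abundant chaperone, too (log2 difference -0.9). Of 19 coat and translocon genes 9 rose and 4 fell. Of 16 tight junction genes 8 fell and 2 rose. Marveld2, of the corners where 3 cells meet, fell by 1.15, Cldn6, a claudin of early epithelia, fell by 0.98 and Tjp1, a scaffold of tight junctions, fell by 0.7. Of 8 gap junction genes 5 rose and 2 fell, and Gjb2, connexin 26, was between 4.46 and 4.81 (median 4.67) at E9.5 and at 6.39, 6.43, 6.85 and 6.81 at E11.5 (log2 difference 1.98 ± 0.11 SE, adjusted p = 6.1e-12). Without the E11.5 sample 51 the risers went from 5 to 2. Of 20 antioxidant genes 7 fell and 1 rose. Gclc, which limits glutathione synthesis, fell by 1.0. Of 6 iron genes 2 rose and 2 fell, with Fth1, a ferritin chain, and Slc40a1, the iron exporter, higher by 1.44 and 1.19 and the transferrin receptor Tfrc lower (log2 difference -0.83, second probe set 0.45). Of 18 intraflagellar transport genes 6 fell and 4 rose, with Ift20 lower (log2 difference -1.04), and of 15 genes of the ciliary gate and BBSome 7 fell and 2 rose, with Tctn2 lower (log2 difference -1.19). Of 13 motile cilium genes 5 rose and 3 fell. Of 27 genes of glycan synthesis 12 rose and 4 fell, with St8sia2, which makes the polysialic acid of Ncam1 in the embryo, higher by 1.07. On second-brightest probe sets, gap junction genes were 1 higher and 2 lower of 3, antioxidant genes 7 higher and 5 lower of 13, motile cilium genes 1 higher and 2 lower of 6 and glycan synthesis genes 3 higher and 2 lower of 20. The opposite sign was measured on the second-brightest probe set of Fth1 (-0.2).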

How the data were processed

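RNA of embryo heads was measured on Affymetrix arrays. The deposited series matrix holds linear intensities that the authors made with RMA (background correction, quantile normalization and summary per probe set), a tool named per the submitters' processing notes with no version stated. Of 45101 probe sets, 64 were controls, 34945 had 1 gene symbol in the platform annotation, 932 had several and 9160 had none, and symbols were updated through RefSeq identifiers (204 were unmatched). Probe sets with several genes or none were left out. The deposited intensities were taken to log2, and each gene was read from its brightest probe set, judged by the mean of the 16 arrays. limma 3.58.1 in R 4.3.3 was fitted to the 16 arrays with 1 mean per stage, and p-values were adjusted by Benjamini-Hochberg over 18193 genes. The fit was checked on simulated data. Controls were compared with a two-sided exact permutation test over 210 regroupings. Where nothing shows separate litters, p-values measure only the spread between these samples. Named genes were ranks 9 to 24 in each direction among called genes without overlap, the 10 genes in each direction with the largest change shared by both brightest probe sets, and within each list up to 4 called members per role, up to 2 against the median and members known from textbooks, of which the text names a part. Ranked gene models without a proper name were skipped. The 65 lists (1522 genes, 1413 measured) and the comparison were chosen with earlier results of these data known, and so were the 8 words searched in promoters. Beside CACGTG and TTTGAA, these were the word CCAAT (in 38.2% of all windows), the word TTTCCCGC (in 1.7% of all windows), the word TTTGGCGC (in 0.849% of all windows), the word GCATGCGC (in 4.29% of all windows), the word CAGATG (in 13.5% of all windows) and the word CAGCTG (in 16.1% of all windows). Alternatives were other arrays, normalizations, probe sets, filters, variance models and each array left out.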

Additional observations from a re-analysis of the deposited data

Results flagged for a closer look

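Of 626 groups tested, a gene in one stage each, 35 held an array farther from its neighbour than the spread of the others allows by Dixon's test, and chance alone marks about 1 in 20 groups. Values are log2 intensities, with the nearest other array of the stage in parentheses. The E11.5 sample 51 stood high for Celf3 at 8.11 (7.63), Fth1 at 12.7 (12.4) and Mxd4 at 8.04 (7.88). The E11.5 sample 51 stood low for Ccdc86 at 5.29 (6.32), Kif11 at 8.23 (8.62), Kif20a at 7.59 (8.29), Nhp2 at 9.08 (9.61), Sall4 at 6.82 (7.2), Shmt1 at 7.38 (7.51) and Sox2 at 10.69 (11.02). The E11.5 sample 36 stood high for Arg1 at 3.81 (3.46), Cdk4 at 11.6 (11.47) and Cenpe at 8.82 (8.34). The E11.5 sample 36 stood low for C1qc at 5.13 (5.49). The E11.5 sample 33 stood high for C1qa at 5.21 (4.91). The E11.5 sample 52 stood low for Elavl4 at 9.32 (9.54). The E9.5 sample 15 stood high for Actl6a at 10.04 (9.67), Slc7a3 at 5.46 (5.25) and Tjp1 at 10.72 (10.58). The E9.5 sample 15 stood low for Ptch1 at 10.68 (10.94) and Tet2 at 5.55 (6.19). The E9.5 sample 24 stood high for Cars at 7.92 (7.84), Ddx27 at 9.03 (8.71) and Polr1e at 8.41 (7.83). The E9.5 sample 24 stood low for Map1lc3a at 8.89 (9.29) and Thra at 5.91 (6.3). The E9.5 sample 13 stood high for Bid at 7.11 (6.83), Ift20 at 6.54 (6.21), Mars1 at 10.33 (10.17) and Ss18 at 10.66 (10.5). The E9.5 sample 19 stood high for Brip1 at 6.41 (6.02). The E9.5 sample 19 stood low for Krt7 at 5.86 (6.77) and Lrp2 at 7.26 (7.58). The E9.5 sample 16 stood high for Cdk5r1 at 6.49 (6.21) and Celf4 at 6.09 (5.78). Sample 51 accounted for 10 of the 35, and samples 13 and 15, which stand apart on the second component, for 4 and 5. None of these arrays was left out of the values given above.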

How the results depend on the processing

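The choice of probe set moved the counts most. On the second-brightest probe set of the 9010 genes that have one, 2239 genes were higher and 2702 lower, 385 rose and 541 fell at least 2-fold, and 2980 did not overlap. With the mean of all probe sets, 603 genes rose and 598 fell at least 2-fold. Part of the fall in these counts comes from the smaller number of genes tested or from averaging, and the rest of the cause was not tested. On the second-brightest probe sets more genes were lower than higher, the reverse of the brightest (5632 higher and 4887 lower of 18193). The mean of all probe sets gave 4990 genes higher and 5232 lower. Leaving out 1 array at a time gave 5323 to 5684 genes higher, 4616 to 4903 lower, 1062 to 1173 at least 2-fold higher and 784 to 920 at least 2-fold lower. The difference of the hybridisation controls ranged from 0.88 to 1.17 and was not past 0.05 without the E11.5 sample 33 (0.88) or 51 (0.97). Of 177 named genes that were called and have a second probe set, 26 had the opposite sign on the second-brightest probe set, with log2 differences of -0.06 for C1qb, -0.16 for Cacna1h, -0.07 for Cacng7, 0.04 for Cars, 0.27 for Ddx27, -0.37 for Dennd6b, -0.19 for Ercc1, -0.2 for Fth1, -0.15 for Hk1, -0.16 for Kcna2, 0.56 for Kif5b, -0.25 for Lama4, -0.01 for Map1b, -0.24 for Mnt, -0.16 for Myt1, -0.09 for Npc2, -1.0 for Polr3k, -0.23 for Rb1, 0.16 for Ret, -0.21 for Robo3, -0.1 for Scn3a, -0.42 for Shh, 0.45 for Tfrc, 0.09 for Tubb6, -0.8 for Ubtf and -0.15 for Zic4. Of the uncalled named genes, Epcam (1.67), Kif11 (0.24) and Prph (0.95) had the opposite sign there too. The cause was not tested. No called named gene reversed under another normalization, filter, variance model or set of arrays. Without the E9.5 samples 13 and 15, Gli1 (-0.34), Kif11 (-0.33), Lin28b (-0.44), Ptch1 (-0.22), Tet3 (0.51) and Thrb (0.29) became called. Without the E11.5 sample 52, Rrn3 lost its call (0.18). With the mean of all probe sets Polr3k (0.02), Tfrc (-0.1) and Ubtf (0.06) were not called, and Actl6a (-0.23), Epcam (0.81), Ntn1 (0.26), Prph (0.38), Ptbp1 (1.4) and Slit1 (0.25) became called. Of 342 counts of list members higher or lower, 219 moved by more than 1.5 times on the second-brightest probe sets, which fewer members have. Averaging all probe sets of a gene moved 58. Examples follow where either count was 5 or more. With the mean of all probe sets, risers of the nuclear pore and import lists went from 8 to 0, of Polycomb subunits from 10 to 6, of the Wnt pathway from 23 to 14 and of calcium-binding proteins from 8 to 5, while antioxidant risers went from 1 to 6 and Hedgehog fallers from 5 to 8. Leaving out an E11.5 sample lowered 5 folate cycle fallers to 3 (sample 52), 5 DNA methylation fallers to 3 (33), 5 BMP and TGF-beta ligand fallers to 3 (33), 5 motile cilium risers to 3 (36) and 5 gap junction risers to 2 (51). No paired analysis was possible because the stages share no replicate numbers. Probe sets near the lower quartile of intensity limit the size of a fold. Under a cut just above that quartile lay the E9.5 mean of 44 genes that rose at least 2-fold and the E11.5 mean of 20 that fell.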
